A study of Mus musculus with 2 samples.

Results

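Semaphorins, plexins, neuropilins, ephrins and Eph receptors are ligands and receptors of cell guidance systems, and their transcripts were examined in cultured mouse keratinocytes. Members were chosen by gene symbol alone: the semaphorins of classes 3 to 7, the plexins, both neuropilins, the ephrins and the Eph receptors, each through probe sets that carry exactly 1 symbol. This gave 52 genes and 123 probe sets among the 18193 genes that the array's annotation names, of which 28 genes encode ligands and 24 encode receptors or coreceptors.

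Keratinocytes are the main cell type of the epidermis, and these were grown as primary cultures from the skin of newborn C57BL/6 mice. The control culture came from mice whose title gives MED1flox/flox and whose source gives wild-type, so the control carries the floxed allele by one label. The other culture came from K5Cre+;MED1flox/flox mice (MED1epi-/-), in which Cre recombinase is driven by the keratin 5 promoter, active in basal keratinocytes, and MED1 is a subunit of the Mediator complex. Each culture was hybridised to 1 Affymetrix array, how many animals each culture pooled is not given, and a difference below is one between 2 arrays with no replicate, test or p-value.

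Semaphorins signal through plexins, whose cytoplasmic part inactivates small GTPases of the R-Ras and Rap group. Secreted class 3 semaphorins mostly need a neuropilin as coreceptor, while classes 4 to 7 are held at the cell surface and bind plexins directly. Eph receptors are receptor tyrosine kinases bound by ephrins on neighbouring cells: ephrin-A ligands are held by a lipid anchor, ephrin-B ligands cross the membrane, and both sides of the contact can signal. In epidermis, EphA2 and ephrin-A1 are known for their part in keratinocyte adhesion and differentiation, and semaphorins are known from contacts of keratinocytes with nerves, vessels and immune cells.

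Signals are given as deposited, in arbitrary linear units of the MAS5 algorithm, first on the control array and then on the MED1-null-labelled array. Signals of different genes come from different probes and cannot be ranked against each other. Values under a floor of 67.7, the median of all probe sets on both arrays, were set to it before the log2 ratio (MED1-null-labelled array over control) was taken. A gene with 1 array below the floor therefore has a bound instead of a ratio, given as "at least", and a gene below it on both arrays has no ratio. Unless stated, a gene is represented by its brightest probe set. The yardstick available was how far probe sets of 1 gene spread, which as a pooled SD was 0.31 (log2) over 4916 genes and 0.36 over the 19 guidance genes that allow it. It says nothing about the spread between cultures.

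Some facts of the arrays bear on every direction below. All 7 Med1 probe sets read higher on the MED1-null-labelled array, the brightest at 462.7 and 1038.7, and the labels do not say which part of the gene was deleted, so a probe set outside it checks nothing. The second array is for this reason named by its label. Sex-linked transcripts also differed: Xist read 5461.1 and 55.7, and the Y-linked gene Eif2s3y read 4.2 and 2163.6. The genotype label and the sex-linked difference cannot be told apart with 1 array each. Keratinocyte markers were high on both arrays, with 8 of the 9 found above the floor and a summed signal over all 9 of 169986 and 191294, while Krt15 was below the floor on both.

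Most guidance genes differed little between the arrays, and 3 stood beyond 2-fold. The secreted ligand gene Sema3e read 8.23-fold lower and the receptor gene Ephb1 at least 2.17-fold lower on the MED1-null-labelled array, and the receptor gene Epha4 read 2.24-fold higher. The remaining 39 of 42 measured genes lay within 2-fold, and 35 within 1.5-fold. In all, 42 of 52 genes reached the floor on at least 1 array (80.8%), against 63.9% of all genes. Of the 42, 35 reached it on both arrays and 7 on 1, so 7 ratios are bounds.

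The counts beyond 2-fold were small and do not set the guidance genes apart from the rest. Among 11621 measured genes, 1.63% were higher and 2.23% lower by 2-fold or more, and among the guidance genes these were 1 of 42 and 2 of 42. With both arrays rescaled to a median ratio of 1, to equal quantiles or along a lowess curve, the counts over all genes moved from 190 higher and 259 lower to 161 and 303, 153 and 303, or 144 and 322. The guidance counts were 1 and 2 under each of these. At 1.5-fold, 3 guidance genes were higher and 4 lower, against 7.8% and 7.32% of all measured genes. The median log2 ratio of the guidance genes was 0.07, against 0.06 over all measured genes, and turned to -0.01 with the arrays' median ratio at 0. Of the 42, 25 had a log2 ratio above 0 and 17 below. Of these, 8 with ratios between -0.1 and 0.1 changed sign under at least 1 of the rescalings: Efnb3, Epha2, Plxnb2, Sema3b, Sema3c, Sema4a, Sema4c and Sema6c.

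**Figure D1:**
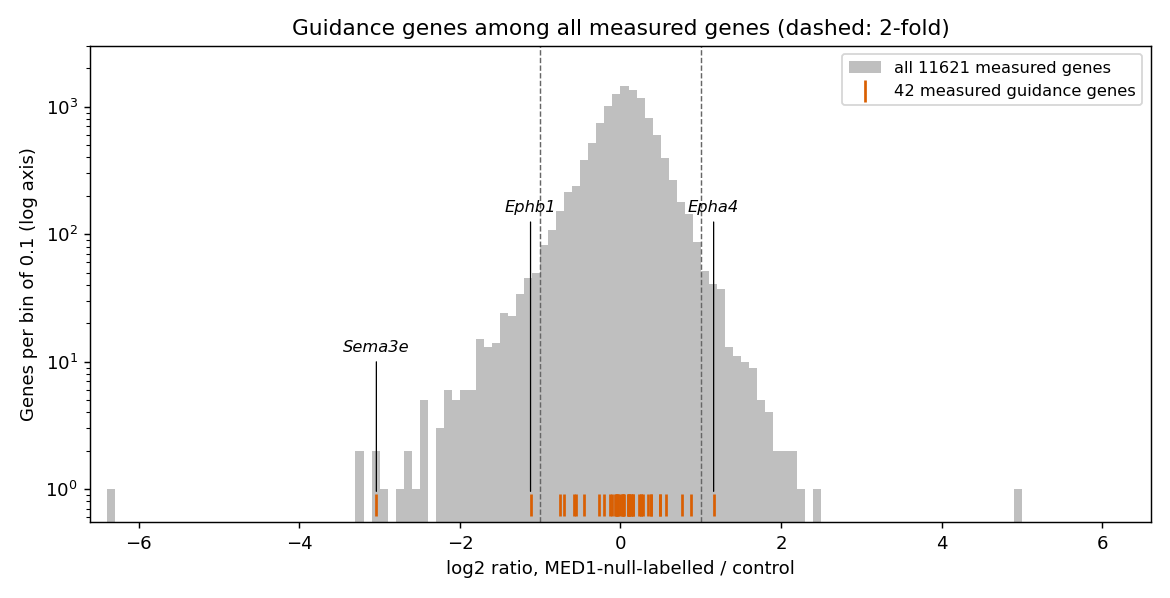
Histogram of the log2 ratio (MED1-null-labelled array over control, x axis) of all 11621 measured genes in bins of 0.1 (y axis, log scale), with the 42 measured guidance genes as ticks. Most ticks lie near 0 between the dashed lines at 2-fold, with Sema3e at -3.04, Ephb1 at -1.12 and Epha4 at 1.16 outside them.

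The largest difference among the members belonged to Sema3e, a secreted class 3 semaphorin that binds plexin-D1 without a neuropilin and is known for repelling growing vessels. Its brightest probe set read 880.2 and 107.0, a log2 ratio of -3.04. The other 3 read 376.7 and 57.8, 269.2 and 33.1, and 224.8 and 74.4. All 4 were higher on the control array, and 2 of them fell below the floor on the other, so their log2 ratios of -2.48 and -1.99 are bounds. The last of them, at the floor on both arrays, gave -1.60. The mean of the 4, bounds included, was -2.28, or 4.84-fold. Sema3e was the only guidance gene with several probe sets of which each was at least 2-fold apart. Only 4 of the 11621 measured genes had a lower ratio. With the floor in place, a gene dim on the control array could not reach so low a ratio. This rank therefore depends in part on signal.

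Its size depended on how the dim array was read. The MED1-null-labelled array lay not far above the floor for this gene. Under a floor at the 75th percentile, 434.6, the log2 ratio could show no more than -1.02. Under the other alternatives it ran from -3.15 to -2.28.

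Of the other secreted class 3 semaphorins, 3 were measured on both arrays and lay within 1.5-fold, while Sema3a has only a bound and Sema3d and Sema3g have no ratio. Sema3c, a ligand for both neuropilins, read 15026.8 and 14573.4, and its second probe set 5935.4 and 4746.7, so both lay within 1.5-fold and slightly on the lower side. By the first probe set the log2 ratio was -0.04, and it was 0.01 after quantile normalization. Sema3f, a ligand of neuropilin-2, read 1293.0 and 1917.7 (1.48-fold higher) by a probe set whose suffix marks sequence shared with other transcripts. Its other probe sets went both ways, at 1243.7 and 1049.6 and at 355.5 and 471.0, so no single direction can be given. Sema3b read 79.2 and 84.2, just above the floor. Sema3a, the ligand of neuropilin-1 that repels sensory axons, read 72.9 and 18.5, at least 1.08-fold lower. Its log2 ratio was -1.98 with a floor of 18.1, the lower quartile of the signal, or with no floor, which takes the low value as it stands, so a difference of that size is not settled for Sema3a. Sema3d and Sema3g stayed below the floor on both arrays. Beside the -3.04 of Sema3e, the other 4 measured members had log2 ratios from -0.11 to 0.57.

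Sema3e lies in a cluster of semaphorin genes on mouse chromosome 5. In the RefSeq order of protein-coding genes, Sema3d and Sema3a are direct neighbours, 3 genes lie between Sema3a and Sema3e, and 15 between Sema3e and Sema3c. Of these neighbours, Sema3a read 72.9 and 18.5, a bound on the lower side, and Sema3d has no ratio. Sema3c gave log2 ratios of -0.04 and -0.32 by its 2 probe sets. Whether the neighbours share a difference with Sema3e was not tested. The direct receptor of Sema3e, plexin-D1, gave a dim signal: Plxnd1, with 1 probe set, read 81.4 and 49.0, at least 1.20-fold lower.

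**Figure D2:**
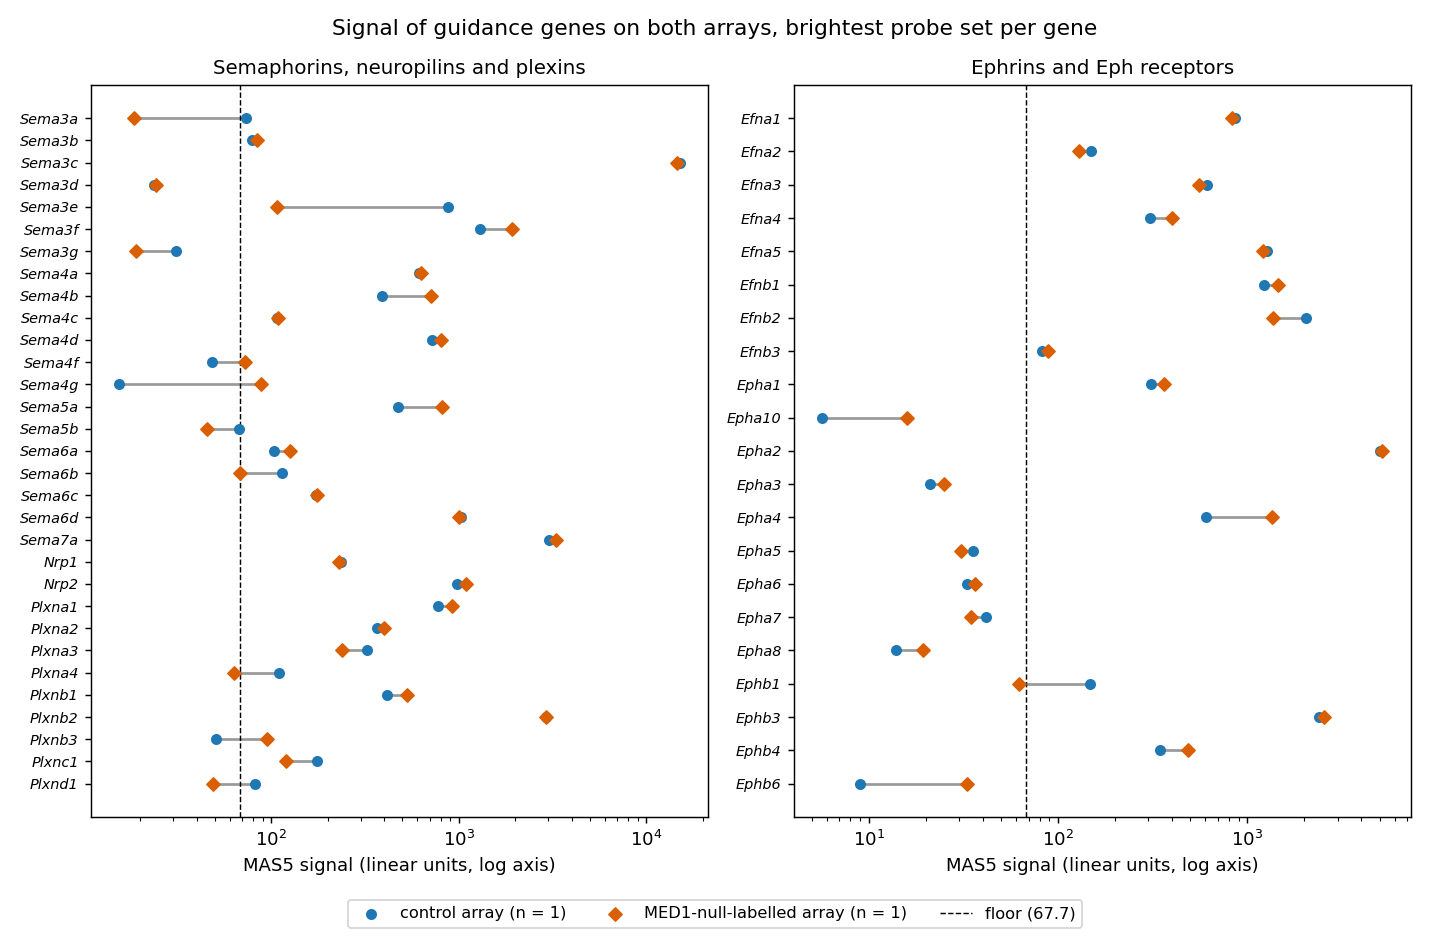
MAS5 signal (x axis, log scale) of each of the 52 guidance genes on the control array (circles) and the MED1-null-labelled array (diamonds), 1 array each, with a line joining the pair and the floor of 67.7 dashed. The longest line between values above the floor belongs to Sema3e, from 880.2 to 107.0, and long lines left of the floor, as for Epha10 and Ephb6, join values too low to give a ratio.

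The membrane-bound class 4 semaphorins were all measured, and none of the 6 reached 2-fold, against 1.63% higher and 2.23% lower of all measured genes. Their log2 ratios ran from 0.03 to 0.88, 2 of them bounds, with a median of 0.13 against 0.06 over all measured genes, of which 57.1% were above 0. Under each rescaling 4 of 6 were above 0, with Sema4a and Sema4c below. Sema4b read 387.0 and 713.7, 1.84-fold higher. Its second probe set read 10.7 and 78.6, a bound of 0.22, and the mean of both was 0.55. Sema4d, the ligand of plexin-B1, read 720.1 and 805.3. Its dimmer probe sets went the other way, at 119.6 and 20.1 and at 103.2 and 11.9, with bounds of -0.82 and -0.61, and the mean of its 3 probe sets was -0.42. Sema4a, known from immune cells, read 616.6 and 629.8 and Sema4c 107.0 and 109.2. Sema4f (48.4 and 72.8) and Sema4g (15.5 and 88.0) were above the floor on the MED1-null-labelled array only. Of the class, Sema4b was the one gene beyond 1.5-fold.

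Sema5a, a transmembrane semaphorin with thrombospondin repeats and a ligand of plexin-B3, read higher on the MED1-null-labelled array by each of its 3 measured probe sets. They read 474.5 and 811.8 (1.71-fold), 166.5 and 333.4 (2.00-fold) and 118.6 and 151.1 (1.27-fold). The log2 ratios were 0.77, 1.0 and 0.35, and over the alternatives the gene's value ran from 0.69 to 0.77. Another probe set, at 12.6 and 7.4, was below the floor. Sema5b was below the floor on both arrays by its brightest probe set, at 67.4 and 45.4, and its other probe set read 88.4 and 15.0.

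Class 6 semaphorins, transmembrane ligands of the plexin-A receptors, gave values near equality except for Sema6b. Sema6b read 113.8 and 67.8, 1.68-fold lower, with the second value almost at the floor and no other probe set to compare. Sema6d read 1020.3 and 998.2 by its brightest probe set and 256.6 and 189.2 by the next. Sema6c read 173.2 and 176.0, with a second probe set at 122.6 and 33.8 that gave a bound of -0.86. Sema6a read 103.1 and 125.5 by 1 probe set and 73.4 and 34.0 by another. Sema7a, a lipid-anchored ligand of plexin-C1 and of integrins, read 3011.3 and 3294.4 by its bright probe set and 110.1 and 94.0 by the dim one.

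All 11 plexin and neuropilin genes were measured and none reached 2-fold. Of all measured genes, 1.63% were higher and 2.23% lower by that much, so the count does not set these apart. Log2 ratios of the 9 plexins ran from -0.70 to 0.49 with a median of -0.01, and 4 were above 0 and 5 below. The neuropilins, coreceptors of class 3 semaphorins, gave 236.0 and 228.3 for Nrp1 and 980.4 and 1088.5 for Nrp2 by the brightest probe set. The next probe sets of Nrp2 read 410.6 and 705.0 and 331.6 and 521.4, log2 ratios of 0.78 and 0.65. A dimmer one, at 87.7 and 65.8, gave a bound of -0.37, so the probe sets of Nrp2 do not settle a size or a direction. Those of Nrp1 ran from -0.27 to 0.12.

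Among the plexin-A receptors, which pair with neuropilins or bind class 6 semaphorins, Plxna1 read 771.0 and 924.4 and Plxna2 365.7 and 400.1. A second probe set of Plxna1 went the other way, at 197.1 and 169.4, and those of Plxna2 ran from -0.29 to 0.69. Plxna3 read 324.9 and 237.5, 1.37-fold lower, with a second probe set at 132.1 and 108.2 on the same side. Plxna4 read 109.8 and 63.4, at least 1.62-fold lower, by the 1 probe set of 2 that reached the floor.

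Plxnb2, a receptor for class 4 semaphorins, read 2925.6 and 2912.4, the ratio nearest to equality among the measured members. The 2 probe sets of Plxnb1 disagreed, at 415.8 and 528.1 and at 505.8 and 368.4, log2 ratios of 0.34 and -0.46. Plxnb3 read 50.6 and 95.4, at least 1.41-fold higher. Plxnc1, the receptor of Sema7a, read 175.2 and 119.4 (1.47-fold lower) and, by a second probe set, 100.9 and 61.8 (at least 1.49-fold lower). Its other 4 probe sets were below the floor on both arrays.

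The ephrins were all measured on both arrays, and by the brightest probe set none of the 8 reached 1.5-fold. Of all measured genes, 7.8% were higher and 7.32% lower by that much. Their median log2 ratio was -0.06. Efna1, the ephrin-A1 ligand of EphA2, read 860.4 and 835.3, with a second probe set at 611.4 and 600.9. Efna5 read 1276.2 and 1216.1, Efna2 149.9 and 129.7, and Efna4 308.2 and 399.7 (1.30-fold higher). Efna3 read 610.3 and 555.8 by 1 probe set and 122.8 and 200.0 by the other, which lie on opposite sides. Efna1, Efna3 and Efna4 follow each other directly on chromosome 3, and their log2 ratios of -0.04, -0.13 and 0.38 had no common direction.

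Efnb2 and Efnb1, the ephrin-B ligands with clear signal, went opposite ways. Efnb2 read lower on the MED1-null-labelled array by all 4 probe sets: 2048.2 and 1367.2, 1197.8 and 827.1, 292.4 and 214.1, and 286.6 and 224.6. Their log2 ratios lay close together, from -0.58 to -0.35, with a mean of -0.48 (1.39-fold). Efnb1 read higher by all 3: 1227.7 and 1456.6, 949.1 and 1568.8, and 728.9 and 1180.5. The latter pair gave 0.73 and 0.70, the brightest 0.25, and the mean was 0.56 (1.47-fold). Both genes kept their side under each alternative, and both differences were under 2-fold by every probe set. Efnb3 read 82.7 and 88.7. Efnb1 lies on the X chromosome, as do Plxna3 and Plxnb3, and the part of the difference in sex-linked transcripts in their values was not tested. Those 3 genes gave 0.25, -0.45 and 0.49, the last a bound.

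Of the EphA receptors, 3 of 9 were measured, and 6 stayed below the floor on both arrays: Epha3, Epha5, Epha6, Epha7, Epha8 and Epha10. No probe set of these 6 read above 41.9. Epha2, the receptor most studied in epidermis, read 5004.7 and 5184.6 by its 1 probe set. Epha4, which binds ephrins of both the A and B type, read higher on the MED1-null-labelled array by each of 4 probe sets at the floor. They read 607.9 and 1359.1 (2.24-fold), 394.2 and 949.8 (2.41-fold), 375.4 and 775.5 (2.07-fold) and 716.6 and 1072.9 (1.5-fold). The log2 ratios ran from 0.58 to 1.27 with a mean of 1.01. By its brightest probe set the gene ranked 118 from the top of the 11621 measured genes, a rank that genes dim on the MED1-null-labelled array could not reach. The fifth probe set, at 1.7 and 49.1, was below the floor.

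Epha1 read 310.9 and 364.2 by its brightest probe set, 111.9 and 153.5 by the next and 67.5 and 161.7 by the dimmest. All were on the higher side, with log2 ratios from 0.23 to 1.26, the last a bound.

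Of the 4 EphB receptor genes among the members, Ephb3 read 2389.7 and 2543.6. Ephb4, the receptor of ephrin-B2, read 347.0 and 488.5, 1.41-fold higher. With the floor at the 75th percentile the log2 ratio of Ephb4 was 0.17, since its control value lay below that floor. Ephb1 read 147.2 and 62.3, the latter just below the floor. Its difference of at least 2.17-fold rests on 1 probe set with low signal and is not counted when genes must reach the floor on both arrays. Ephb6, whose kinase domain is inactive, read 9.0 and 33.3. Each of the 4 EphB genes is represented by 1 probe set. Across the Eph receptors among the members 6 of 13 were measured (46.2%), while all 11 plexins and neuropilins and all 8 ephrins were. The receptor gene Ephb2 is not a member, since no probe set carried its symbol alone.

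Counted by probe set, 5 of the 83 with signal at or above the floor were higher by 2-fold or more and 5 were lower. Over all probe sets with 1 symbol these shares were 1.82% and 2.08%. The 5 higher ones belonged to Epha4 (3), Sema5a (1) and Epha1 (1), and the 5 lower ones to Sema3e (4) and Ephb1 (1), so probe sets of the same gene make up most of both counts. Of 24 genes with at least 2 probe sets reaching the floor, 13 had them all on 1 side and 11 did not.

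**Figure D3:**
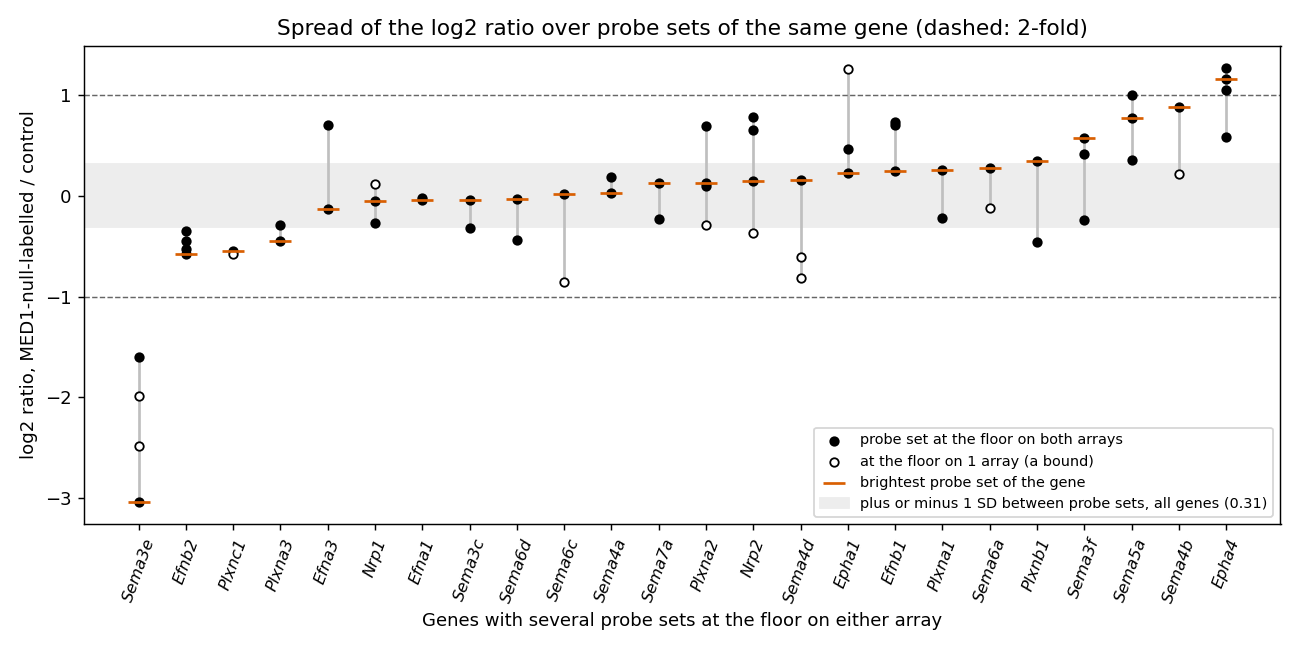
Log2 ratio (MED1-null-labelled array over control, y axis) of each probe set of the 24 guidance genes with at least 2 probe sets reaching the floor (x axis). Filled points reached the floor on both arrays, open points are bounds, orange bars mark the brightest probe set, and the grey band is 1 SD between probe sets of all genes (0.31). The 4 points of Sema3e lie at or below -1.60, those of Efnb2 lie close together below 0, and those of Nrp2, Plxnb1 and Sema3f lie on both sides of 0.

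The upstream sequence of the 3 genes beyond 2-fold is shown so that a reader can see what lies before their starts. Each is the 250 bases before the RefSeq start site, in build GRCm38.p6, read 5′ to 3′ on the gene's strand: Sema3e (chr5:14025026-14025275, plus strand), Ephb1 (chr9:102354694-102354943, minus strand) and Epha4 (chr1:77515089-77515338, minus strand). Capitals mark matches, on either strand, to a short list of motifs: AGGTCA (nuclear receptor half-site), CACGTG (E-box), TGANTCA (AP-1), GGGCGG (GC box), CCAAT and TATAAA.
Sema3e: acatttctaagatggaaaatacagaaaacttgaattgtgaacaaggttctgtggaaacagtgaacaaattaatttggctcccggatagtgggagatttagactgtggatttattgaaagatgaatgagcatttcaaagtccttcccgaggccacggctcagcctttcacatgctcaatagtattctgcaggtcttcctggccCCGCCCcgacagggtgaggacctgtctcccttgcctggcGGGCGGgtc
Ephb1: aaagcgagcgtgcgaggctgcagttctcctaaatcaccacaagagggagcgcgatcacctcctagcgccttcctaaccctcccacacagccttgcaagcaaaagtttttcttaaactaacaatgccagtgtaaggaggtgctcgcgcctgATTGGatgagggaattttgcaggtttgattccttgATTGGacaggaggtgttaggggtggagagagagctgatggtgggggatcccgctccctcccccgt
Epha4: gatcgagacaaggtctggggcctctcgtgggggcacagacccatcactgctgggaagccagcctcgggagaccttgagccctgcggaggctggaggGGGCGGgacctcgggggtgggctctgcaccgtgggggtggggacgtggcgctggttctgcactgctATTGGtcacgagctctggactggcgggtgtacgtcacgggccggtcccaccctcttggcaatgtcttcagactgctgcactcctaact

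The Sema3e window held 2 GC boxes and the Epha4 window 1, a motif found in 32.7% of 32851 windows of the same length. CCAAT occurred 2 times in the Ephb1 window and 1 time in that of Epha4, against 33.8% of all windows. None of the 3 windows held the half-site, the E-box, the AP-1 motif or the TATA motif, which occur in 14.0%, 6.02%, 6.75% and 12.4% of windows, and no 2 matches overlapped. GC content was 48.0% for Sema3e, 54.0% for Ephb1 and 66.0% for Epha4, with a median of 52.4% over all windows. The matches are descriptions of these letters, and no binding was measured.

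Genes that act downstream were read from lists of known partners. Of 30 partners of plexins and semaphorin coreceptors found, 25 were measured, with a median log2 ratio of -0.06. None was 2-fold apart, against 1.63% higher and 2.23% lower of all measured genes, so the count does not set them apart. Rnd1, whose product binds plexins, read 337.7 and 185.2 (1.82-fold lower), and its relative Rnd3 read 4418.3 and 7948.3 (1.80-fold higher). Rac1 read 17927.1 and 16779.2. The receptor kinase genes Met and Erbb2, which associate with plexin-B receptors, read 4820.3 and 7140.4 and 373.0 and 527.6, both on the higher side. Of the collapsin response mediators, Dpysl2 (1766.8 and 1247.0) was on the lower side and Dpysl3 (121.3 and 57.9) at least 1.79-fold lower. Crmp1, Dpysl4 and Dpysl5, of the same family, were below the floor on both arrays.

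Of 27 partners of Eph receptors and ephrins, 24 were measured, 3 were at least 2-fold lower and none higher, against 2.23% and 1.63% of all measured genes, with a median of 0.01. The 3 were Grip2, Grip1 and Fyn. Grip1 and Grip2 encode adaptors with PDZ domains that bind the tail of ephrin-B ligands. Grip2 read 231.6 and 21.7, at least 3.42-fold lower, by 1 probe set. Grip1 read 297.5 and 141.1, 2.11-fold lower, and its second probe set gave a log2 ratio of -0.91. Fyn, a Src-family kinase downstream of ephrins, read 312.2 and 150.2, but its second probe set gave -0.14. Rgs3, which binds ephrin-B tails, read 503.2 and 839.9 (1.67-fold higher, with a second probe set at 1.23 on the log2 scale). The exchange factor gene Vav2 read 105.5 and 188.8, with a second probe set at 0.02.

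Markers of other cell types were read beside these results, since in a bulk culture fewer cells of a type and less RNA per cell cannot be told apart. Of 10 fibroblast markers, 6 were measured, 5 of them on the lower side, and the signal summed over all 10 was 839 and 535. Of those 5, 4 are bounds (Col3a1, Dcn, Twist2 and Thy1), and Pdgfra read 156.6 and 126.2. Col1a2 went the other way, at 80.3 and 115.3, and Col1a1, Lum, Pdgfrb and Postn were below the floor on both arrays. All 8 melanocyte markers were measured, with 6 on the lower side, a summed signal of 25056 and 19507, and Kit at 409.5 and 136.8. Tyr (626.6 and 746.8) and Sox10 (259.9 and 261.3) were not lower by the brightest probe set. The 3 probe sets of Tyr disagreed, with log2 ratios from -1.26 to 0.25, while those of Sox10 ran from 0.01 to 0.54. Of the 6 Schwann and neural markers found, 4 were measured, 3 on the lower side, with a signal summed over all 6 of 5906 and 4721, and S100b and Gap43 were below the floor. The neurotrophin receptor gene Ngfr read 157.7 and 13.6, Mbp 2970.8 and 1918.0, Erbb3 2406.8 and 2273.9, and Tubb3, higher, 293.0 and 483.3. Of 8 endothelial markers, Kdr alone was measured and the defining genes Pecam1, Cdh5, Tek, Tie1 and Vwf were below the floor on both arrays. Of 8 immune markers, 3 were measured, and Ptprc, Cd207, Cd3e, H2-Ab1 and Tyrobp were below the floor on both arrays. The signal summed over all 8 was 2724 and 3088, most of it from Cd68 (2446.0 and 2798.9). The summed fibroblast, melanocyte and neural signals, though not each marker, were thus lower on the same array as Sema3e, Ephb1, Efnb2, Grip1 and Grip2, and their part in those values was not tested. The fibroblast sum is made up largely of values near or below the floor. The fall in the neural sum came mainly from Mbp, whose 7 probe sets ran from -1.51 to -0.63 in log2 ratio.

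**Figure D4:**
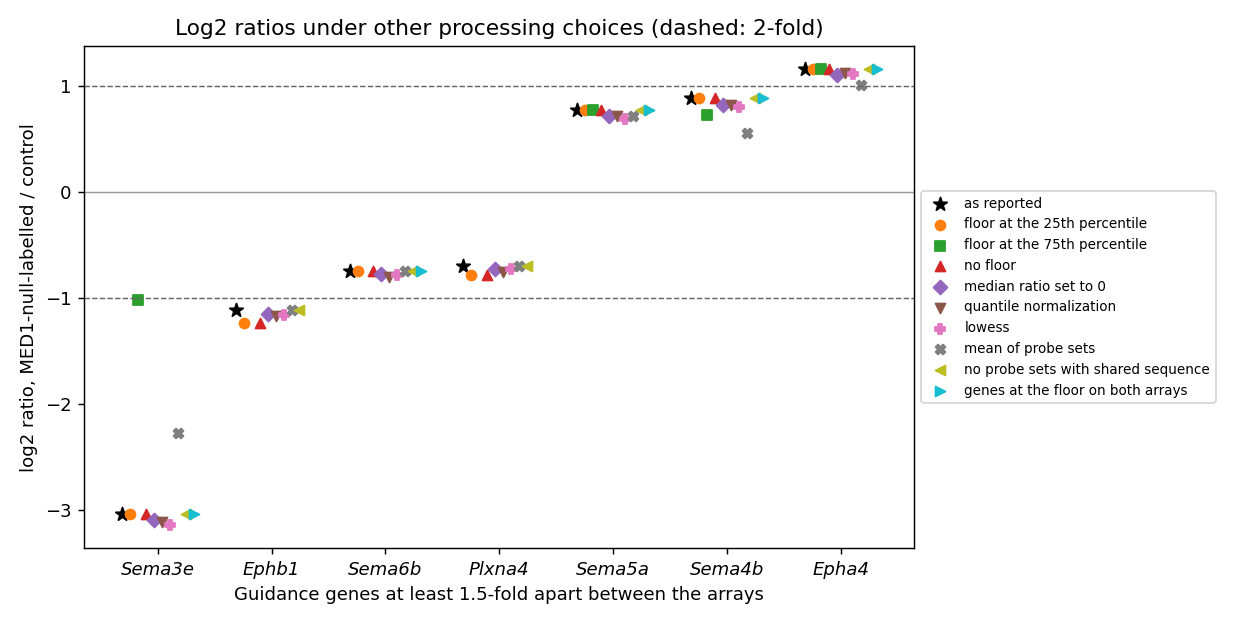
Log2 ratio (MED1-null-labelled array over control, y axis) of the 7 guidance genes at least 1.5-fold apart (x axis), as reported (stars) and under each alternative that gave a value (other symbols). Each gene stays on its side of 0. Sema3e runs from -3.15 to -1.02, and Epha4 stays between 1.01 and 1.16.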

How the data were processed

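Both samples are Affymetrix mouse arrays, 1 per group, grouped by the genotype in the labels. The deposited values are linear signal intensity per probe set, made by the authors with MAS5, per the submitters' processing notes. The version is not given in the sources used here, detection calls were not used, and MAS5 subtracts mismatch signal, which makes low values noisy. Symbols were those of GEO's platform annotation, and all 52 members matched the RefSeq table of GRCm38.p6 by Entrez ID. Of 45101 probe sets, 64 controls were left out. The floor was 67.7. Each gene was represented by its brightest probe set over both arrays, and a ratio of 2 or more was counted. With 1 array per group no test was possible, and precision is limited by the number of arrays. The counting was tested on simulated data, with planted changes well beyond 2-fold in genes far above the floor. That test did not cover changes near 2-fold, dim genes or bounds, and false calls were not counted.

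Every measured member is named with its values. Outside the members, Med1, sex-linked genes, markers and partners are named, the partners being those past 2-fold, the 2 farthest from 0 per list, and a few (Rac1, Met, Erbb2, Dpysl2, Dpysl3, Rgs3, Vav2, Neo1, Robo1, Rgmb and the Slit genes) picked after their values were seen. The members and lists were chosen with earlier results of these data known. Alternatives were 3 floors, 3 rescalings, 2 other choices of probe set, and a requirement that both arrays reach the floor. Python 3.11.15 and pandas 2.3.3 were used.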

Additional observations from a re-analysis of the deposited data

How the results depend on the processing

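Under 9 alternatives, the count of guidance genes at least 2-fold higher was 1 in 7 of them, with Epha4 each time. A floor at the 25th percentile (18.1) gave 2, with Sema4g added, and no floor gave 4, with Epha10, Ephb6 and Sema4g added, genes near or under the floor on both arrays. The count at least 2-fold lower was 3 under both of these, with Sema3a added, and became 1, Sema3e alone, with the floor at the 75th percentile (434.6) and when genes had to reach the floor on both arrays, by construction of both rules. The median log2 ratio of 0.07 became -0.01 with the median ratio set to 0. Over all genes the lower floor gave 1120 higher and 934 lower (6.98% and 5.82% of those measured). No floor gave 2229 and 1900 (12.3% and 10.4%), and the higher floor 49 and 106 (0.703% and 1.52%). The guidance genes measured under these 3 floors were 51, 52 and 22. Of 350 values of single genes, 329 stayed within 1 SD between probe sets and on their side of 2-fold, 21 moved, and none of the genes beyond 2-fold changed sign. Many of the 329 could not have moved, so the count is no measure of robustness. The lower floor and no floor leave the 35 genes above the floor on both arrays unchanged, and the both-arrays rule keeps their values. With 1 array per group, signal over background limits the dim genes, 7 of which have only bounds. No paired analysis was possible because each group has 1 array.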

Other observations

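Other guidance systems were mostly below the floor in both cultures. Of 22 netrin, Slit, Robo and repulsive guidance genes, 10 reached the floor on either array, and the median log2 ratio was 0.08. None was 2-fold apart, against 1.63% higher and 2.23% lower of all measured genes. Slit1, Slit2 and Slit3 were below the floor on both arrays. The receptor gene Neo1 read 343.1 and 419.2, Robo1 188.9 and 174.0, and Rgmb 442.6 and 464.1. In log2 ratio, the 3 probe sets of Neo1 ran from 0.29 to 0.81 and the 5 of Rgmb from -0.22 to 0.93. The netrin receptor gene Dcc read 85.1 and 141.6, 1.66-fold higher on the MED1-null-labelled array by 1 probe set with low signal. Unc5b, another netrin receptor gene, read 133.7 and 89.9, and its probe sets ran from -0.57 to 0.77 in log2 ratio.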
